A study of Mus musculus with 8 samples.

Results

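Erythropoietin and 9 genes that low oxygen is known to induce were followed in the kidneys of wild-type and Pus1 mutant mice. The 10 genes were chosen by symbol: Epo, Vegfa, Adm, Egln1, Egln3, Kdm3a, P4ha1, Bnip3, Ndrg1 and Ankrd37. Together they had 15 of the 55681 probes on the array. Each gene was represented by its brightest probe among those well above background, by the scanner software's own mark, in at least 4 of 8 channels. By this rule 9 of the 10 genes entered the tests, among 22122 items in all, an item being a named gene or a probe without a gene name. Epo did not pass.

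Total RNA of frozen whole-kidney cross sections was hybridised to 4 dual-channel Agilent arrays. The 4 wild-type and 4 homozygous Pus1 mutant mice were 14 to 16 weeks old, on a C57BL/6J background after 5 generations of backcrossing, and untreated. How the mutant allele was made is not stated in the labels. Replicates 1 and 2 were female and replicates 3 and 4 male in both genotypes, and each array held the mutant and the wild-type mouse of 1 replicate number. The mutant was labelled with Cy5 on arrays 1 and 3 and with Cy3 on arrays 2 and 4. Females lay at the first 2 positions of the slide and males at the last 2, so that sex and slide position cannot be told apart. Levels are normalized log2 intensities, which compare samples within a probe and not probes with each other.

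Pus1 encodes a pseudouridine synthase, which isomerises chosen uridines of transfer RNAs and other RNAs in the cytosol and in mitochondria. In humans its loss causes a mitochondrial myopathy with lactic acidosis and sideroblastic anaemia. When oxygen is plentiful, prolyl hydroxylases mark the alpha subunits of the hypoxia-inducible factors (HIF) for destruction by the von Hippel-Lindau ubiquitin ligase. When oxygen is short the alpha subunits persist, pair with Arnt and bind short motifs with the core ACGTG or GCGTG near their target genes. The kidney is the main source of erythropoietin in the adult mouse, where interstitial cells release it in hypoxia or anaemia and it drives red cell production in the marrow.

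The RefSeq promoter windows of 300 bases (GRCm38.p6, 250 bases before and 50 after each annotated start) were matched by symbol for 9 of the 10 genes. Ndrg1 is named only. The motifs were searched on both strands, overlapping matches included, and every ACGTG or GCGTG, or its reverse complement CACGT or CACGC, is in capitals below. The window of Epo is shown because its transcript was not measured here, those of Vegfa and Bnip3 because their levels differed between the sexes, and that of Ankrd37 because it holds 2 separate ACGTG cores. All are given 5′ to 3′ on the strand of the gene.
Epo (chr5:137485767-137486066, minus strand): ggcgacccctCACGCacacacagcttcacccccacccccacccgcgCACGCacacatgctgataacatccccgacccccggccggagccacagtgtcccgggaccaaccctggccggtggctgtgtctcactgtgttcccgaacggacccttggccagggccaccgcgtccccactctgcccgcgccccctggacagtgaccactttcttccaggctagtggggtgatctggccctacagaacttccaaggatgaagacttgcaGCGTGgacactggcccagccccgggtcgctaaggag
Vegfa, start farthest upstream (chr17:46032328-46032627, minus strand): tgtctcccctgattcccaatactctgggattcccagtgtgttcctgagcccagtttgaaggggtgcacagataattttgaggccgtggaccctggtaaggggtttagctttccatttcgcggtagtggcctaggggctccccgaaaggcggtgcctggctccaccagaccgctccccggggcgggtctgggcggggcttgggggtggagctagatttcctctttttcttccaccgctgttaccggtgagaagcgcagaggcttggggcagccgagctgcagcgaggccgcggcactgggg
Vegfa, start within the gene (chr17:46025114-46025413, minus strand): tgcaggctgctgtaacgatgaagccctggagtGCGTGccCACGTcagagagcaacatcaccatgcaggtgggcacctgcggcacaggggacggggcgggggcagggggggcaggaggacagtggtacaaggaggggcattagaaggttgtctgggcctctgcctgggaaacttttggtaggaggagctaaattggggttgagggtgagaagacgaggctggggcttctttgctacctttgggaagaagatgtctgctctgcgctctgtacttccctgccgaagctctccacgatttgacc
Bnip3 (chr7:138909457-138909756, minus strand): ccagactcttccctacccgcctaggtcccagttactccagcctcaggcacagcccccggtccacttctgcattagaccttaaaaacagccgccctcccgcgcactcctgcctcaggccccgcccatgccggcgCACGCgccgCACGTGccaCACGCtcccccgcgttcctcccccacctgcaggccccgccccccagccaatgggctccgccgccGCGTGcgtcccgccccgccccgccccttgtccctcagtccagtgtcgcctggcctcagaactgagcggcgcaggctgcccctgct
Ankrd37 (chr8:45999801-46000100, minus strand): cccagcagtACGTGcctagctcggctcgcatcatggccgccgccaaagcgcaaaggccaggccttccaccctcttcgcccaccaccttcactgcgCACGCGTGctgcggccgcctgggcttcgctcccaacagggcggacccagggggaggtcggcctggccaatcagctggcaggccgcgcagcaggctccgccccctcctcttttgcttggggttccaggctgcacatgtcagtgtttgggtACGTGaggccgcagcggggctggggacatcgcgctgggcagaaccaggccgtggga

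ACGTG was present in a window of 6 of the 9 genes, against 19.6% of all 32851 windows of that length. GCGTG was present in 8 of the 9, against 32.4% of all windows, and 1 or the other in all 9, against 43.8%. A gene counts here if any of its windows holds the motif, while the shares are of single windows. Kdm3a had 3 windows and Vegfa 2. Of the 12 windows of the 9 genes, 6 held ACGTG, 8 held GCGTG and 9 held 1 or the other. In Bnip3 the palindrome CACGTG counts as a match on each strand, and in Ankrd37 a CACGC overlaps a GCGTG. Of the windows of Vegfa, the one farthest upstream held neither motif and the one within the gene held both. A match of these letters describes the window and is not a measured binding site.

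Loss of Pus1 RNA served as the check of the labels. The brightest Pus1 probe fell from 10.27 ± 0.18 (SD, n = 4) in wild type to 7.31 ± 0.27 (SD, n = 4) in mutants, a log2 ratio of -2.96 (limma, adjusted p = 0.00041). The genotypes did not overlap. None of the 9 hypoxia genes passed the same test, in which the adjusted p-values of the 9 lay between 0.980 and 0.999 (limma, Benjamini-Hochberg over all items). Of all items 0.0271% passed, 0.00904% as higher and 0.0181% as lower in mutants. At an unadjusted p under 0.05 there was 1 of the 9 genes, Ndrg1, against 4.46% of all items. The median log2 ratio of the 9 genes was 0.032, with 6 above 0 and 3 below, and that of all items was -0.0045.

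**Figure D1:**
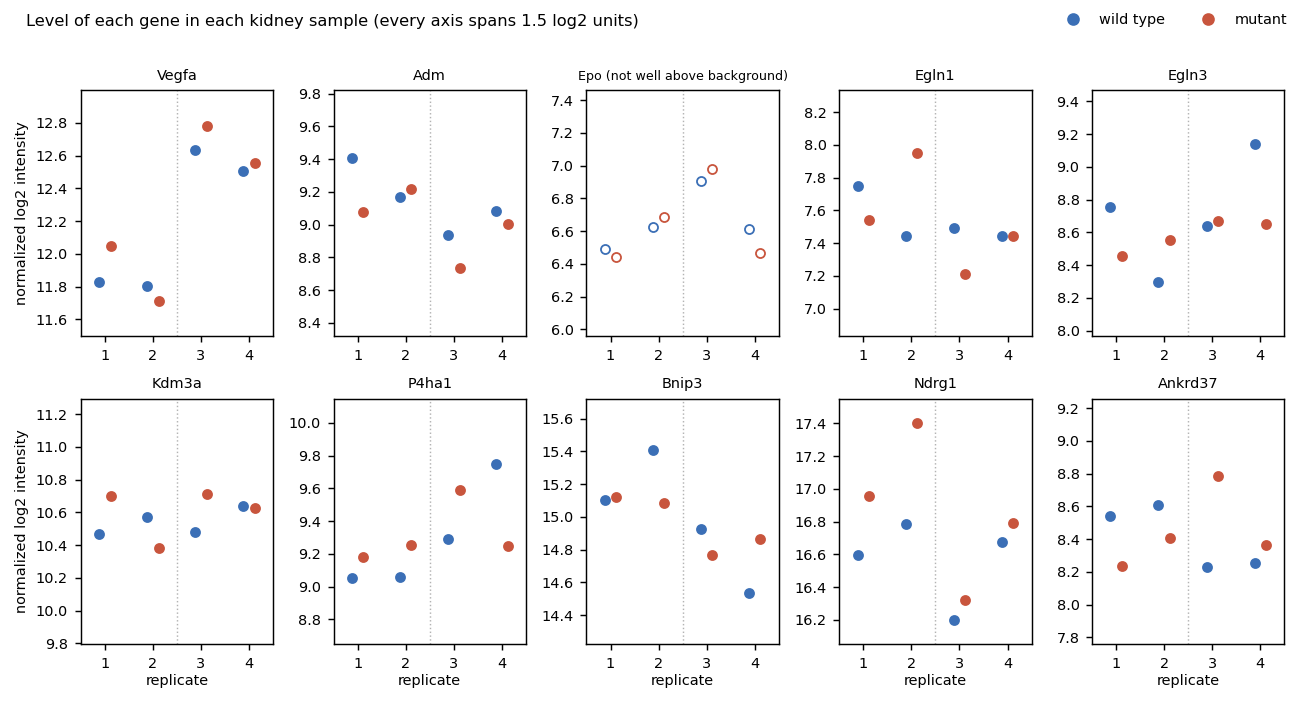
Normalized log2 intensity of each gene's probe (vertical axes, each spanning the same log2 range) in wild-type (blue) and mutant (red) mice of replicates 1 and 2 (female, left of the dotted line) and 3 and 4 (male, right of it). Vegfa lies higher and Bnip3 lower in all males than in all females, while the genotypes overlap in every panel; open symbols mark Epo, whose probe was not well above background.

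Of the secreted factors, the 1 Epo probe (gene at chromosome 5, 137483020 to 137485816, GRCm38.p6) was not well above background in any of the 8 channels. In Cy3, spot and local background intensity were 64 and 48 in wild-type replicate 1, 67 and 46 in mutant replicate 2, 79 and 47 in wild-type replicate 3, and 63 and 51.5 in mutant replicate 4. In Cy5 they were 150 and 137 in mutant replicate 1, 173 and 143 in wild-type replicate 2, 207 and 132.5 in mutant replicate 3, and 175 and 137 in wild-type replicate 4. The spot exceeded its background by 11.5 to 74.5 units, the most in mutant replicate 3. No genotype or sex value is given for Epo, since this signal sets only a bound. The gene lies 26.7 Mb from Pus1 on the same chromosome.

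Vegfa, at chromosome 17, 46016993 to 46032377, encodes the vascular endothelial growth factor that podocytes and tubule cells supply to the renal capillaries. Its level was 11.83 and 11.81 in wild-type females, 12.05 and 11.71 in mutant females, 12.63 and 12.50 in wild-type males, and 12.78 and 12.56 in mutant males. All 4 males lay above all 4 females, and wild types and mutants were interleaved within each sex. The mean of males was 12.62 ± 0.12 (SD, n = 4) and that of females 11.85 ± 0.14 (SD, n = 4). Males were higher by 0.77 on the log2 scale (SE 0.10, 95% interval 0.52 to 1.02), or 1.70-fold (limma, adjusted p = 0.0022). Within wild type alone the difference was 0.75, and within mutants alone 0.79. Without the replicate 2 mice it was 0.68, with adjusted p = 0.056 by limma. The second Vegfa probe, A_52_P249424, was also higher in males, by 0.35 (SE 0.078, limma over 28960 probes, adjusted p = 0.012). By that probe the sexes overlapped, from 10.65 to 11.18 in females and 11.12 to 11.51 in males. The genotype ratio of Vegfa was 0.22, -0.092, 0.15 and 0.054 on arrays 1 to 4, with a mean of 0.082 (SE 0.072, 95% interval -0.095 to 0.26). The interval allows at most a 1.20-fold difference in either direction.

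In bulk tissue fewer cells of a type and less RNA per cell cannot be told apart. Markers of other cell types differed between the sexes as well. The sex test passed 50% of podocyte, 60% of endothelial and 50% of proximal tubule markers, near the 45.5% of all items (27.1% lower in males). Of the 4 podocyte markers Podxl and Wt1 were lower in males, and their summed log2 level was 13.24 to 13.60 in females and 12.30 to 13.28 in males. Of the 5 endothelial markers Cdh5, Tek and Kdr were lower in males, with sums of 13.73 to 13.99 in females and 13.37 to 13.55 in males. Of the 6 proximal tubule markers Slc22a6 was higher and Lrp2 and Cubn were lower in males, with sums of 18.75 to 19.14 and 18.80 to 18.97. Their part in the Vegfa difference was not tested.

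Adm, at chromosome 7, 110627657 to 110629820, encodes adrenomedullin, a peptide that widens blood vessels. Its level was 9.41 and 9.17 in wild-type females, 9.08 and 9.22 in mutant females, 8.94 and 9.08 in wild-type males, and 8.73 and 9.005 in mutant males. Males overlapped females only at wild-type replicate 4, which lay just above mutant replicate 1. The sex difference was -0.28 (SE 0.098, 95% interval -0.51 to -0.042) and did not pass (limma, adjusted p = 0.058). The genotype ratio was -0.14 (SE 0.073, 95% interval -0.32 to 0.038), negative on 3 of 4 arrays.

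Egln1 and Egln3 encode prolyl hydroxylases of the HIF alpha subunits, and both are themselves HIF targets. Egln1, at chromosome 8, 124908587 to 124949254, was at 7.75 and 7.44 in wild-type females, 7.54 and 7.95 in mutant females, 7.49 and 7.45 in wild-type males, and 7.21 and 7.45 in mutant males. Its genotype ratio ran from 0.51 on array 2 to -0.28 on array 3, with a mean of 0.0063 (SE 0.10, 95% interval -0.24 to 0.25). Egln1 was also the gene of the 9 with the largest dye term, at -0.25 (limma, adjusted p = 0.21), and none of the 9 passed the dye test, against 2.17% of all items. At an unadjusted p under 0.05 of the dye term there was 1 of the 9, against 24.2% of all items. The sex difference of -0.27 (SE 0.094) missed the threshold (limma, adjusted p = 0.054).

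Egln3, at chromosome 12, 54178981 to 54203874, stood at 8.75 and 8.30 in wild-type females, 8.46 and 8.55 in mutant females, 8.64 and 9.14 in wild-type males, and 8.67 and 8.65 in mutant males. Wild-type replicate 4 was the highest sample, and the other 3 males lay between the lowest and the highest female. The wild types spread from 8.30 to 9.14 and held all the mutants within them, with SDs of 0.35 and 0.097 (n = 4 each). The genotype ratio was -0.12 (SE 0.14, 95% interval -0.46 to 0.21), and the sex difference was 0.26 (SE 0.17, limma, adjusted p = 0.24). The second Egln3 probe gave a sex difference of 0.17 (SE 0.14).

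Kdm3a and P4ha1 encode oxygen-dependent enzymes that use the same chemistry as the prolyl hydroxylases, a histone H3 lysine demethylase and the catalytic subunit of collagen prolyl 4-hydroxylase. Kdm3a, at chromosome 6, 71588970 to 71632990, varied least of the 9, at 10.47 and 10.57 in wild-type females, 10.703 and 10.38 in mutant females, 10.48 and 10.64 in wild-type males, and 10.71 and 10.63 in mutant males. Both genotypes and both sexes overlapped. Its genotype ratio was 0.066 (SE 0.073, 95% interval -0.11 to 0.25), which allows at most a 1.19-fold difference, the tightest bound among the 9. Its sex difference was 0.083 (SE 0.083).

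P4ha1, at chromosome 10, 59323197 to 59373304, was at 9.05 and 9.06 in wild-type females, 9.18 and 9.25 in mutant females, 9.29 and 9.75 in wild-type males, and 9.59 and 9.25 in mutant males. The lowest male and the highest female were nearly level, and the other males lay above all females. The sex difference of 0.33 (SE 0.12, 95% interval 0.033 to 0.63) did not pass (limma, adjusted p = 0.069), and the second probe gave 0.18 (SE 0.16). The genotype ratio was positive on arrays 1 to 3 and -0.50 on array 4, with a mean of 0.032 (SE 0.12).

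Bnip3, at chromosome 7, 138890836 to 138909506, encodes a protein of the outer mitochondrial membrane that takes part in mitophagy. Its level was 15.10 and 15.41 in wild-type females, 15.12 and 15.08 in mutant females, 14.93 and 14.54 in wild-type males, and 14.77 and 14.87 in mutant males. Every male lay below every female. The log2 difference of males from females was -0.40 (SE 0.13, 95% interval -0.72 to -0.085, limma, adjusted p = 0.046), a 1.32-fold difference. The call was lost in 10 of 16 alternatives, among them without replicate 1, 2 or 4 (values from -0.47 to -0.33) and within either genotype alone (-0.52 in wild types and -0.28 in mutants). The other Bnip3 probes pointed the same way, at -0.28 (SE 0.10, limma, adjusted p = 0.063) and -0.37 (SE 0.10, limma, adjusted p = 0.028). The genotype ratio was 0.020, -0.32, -0.16 and 0.33 on arrays 1 to 4, and its mean of -0.034 (SE 0.12) had no common sign.

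Ndrg1, at chromosome 15, 66929318 to 66969641, encodes a cytoplasmic protein induced by hypoxia and other stresses. Its level was 16.60 and 16.78 in wild-type females, 16.96 and 17.40 in mutant females, 16.20 and 16.68 in wild-type males, and 16.32 and 16.79 in mutant males. The mutant exceeded its wild-type partner on every array, by 0.36, 0.62, 0.12 and 0.11, yet the genotypes as groups overlapped. No other of the 9 genes had 1 sign on all 4 arrays, a feature of 8.15% of all items. The mean ratio was 0.30 (SE 0.11, 95% interval 0.044 to 0.56), or 1.23-fold, and did not pass (limma, adjusted p = 0.98). Without replicate 2 it was 0.18, and without replicate 4 it was 0.43. All 5 markers of the thick ascending limb had positive mean ratios as well, with a median of 0.29. None of the 5 passed, and 3 had an unadjusted p under 0.05, against 4.46% of all items. Their median ratios on arrays 1 to 4 were 0.58, 0.093, 0.20 and -0.25, and their summed log2 level was 17.64 to 18.11 in wild type and 17.92 to 18.38 in mutants. Their part in the Ndrg1 ratio was not tested. The sex difference of Ndrg1 was -0.44 (SE 0.18, limma, adjusted p = 0.085).

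Ankrd37, at chromosome 8, 45996908 to 46000414, encodes a small ankyrin repeat protein. It was at 8.54 and 8.61 in wild-type females, 8.23 and 8.41 in mutant females, 8.23 and 8.25 in wild-type males, and 8.79 and 8.36 in mutant males. The ratio was negative in both female pairs, at -0.31 and -0.20, and positive in both male pairs, at 0.56 and 0.11. The mean over the 4 arrays was 0.039 (SE 0.15, 95% interval -0.33 to 0.41), and the sex difference was -0.042 (SE 0.12, limma, adjusted p = 0.79).

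**Figure D2:**
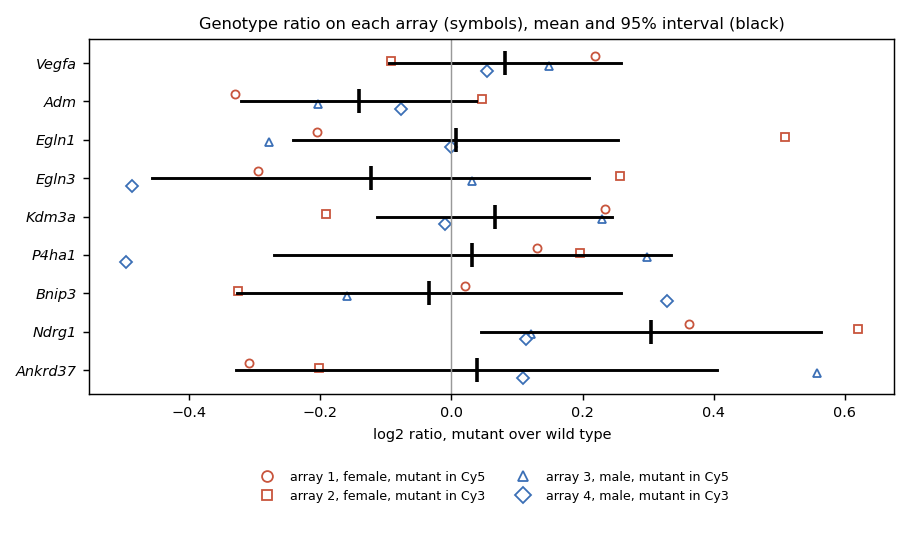
Log2 ratio of mutant over wild type (horizontal axis) of the 9 measured genes on each array (open symbols, red for female and blue for male pairs), with the mean (vertical tick) and its 95% interval (black line). Only Ndrg1 has all 4 arrays on 1 side of 0; the 95% interval of every other gene includes 0.

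Whether the genotype ratio depended on sex was tested as the male pairs' mean ratio minus that of the female pairs. None of the 9 genes passed (limma, adjusted p = 1.00 for each), against 31 items or 0.14% of the table. At an unadjusted p under 0.05 there was 1 of 9, Ankrd37, against 3.82% of all items. Its difference was 0.59 (SE 0.20, 95% interval 0.10 to 1.08, limma, adjusted p = 1.00). The other values ran from -0.37 for Ndrg1 to 0.24 for Bnip3. Only 1 residual degree of freedom remained in this fit. In simulated data it called 0% of true log2 differences of 0.5, 1 or 2. The simulated spreads were estimated with sex left out and the real data gave 31 calls, so this rate does not carry over. The 95% intervals bound the difference instead, from -0.39 to 0.46 for Vegfa and from -0.86 to 0.44 for Egln3. Fat and urothelial markers differed between the paired sections on the same arrays. The 8 markers of perirenal fat had median ratios of -1.58, -1.85, 1.96 and 0.55 on arrays 1 to 4, and the 6 of urothelium -1.97, -1.73, 1.88 and -0.086. Their summed log2 levels ran from 14.57 to 18.23 and from 10.37 to 13.59 in wild type, and from 15.14 to 17.18 and from 11.03 to 12.85 in mutants, with none of these markers left out as dim. Their part in the Ankrd37 difference was not tested.

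By sex, 2 of the 9 genes passed, Vegfa as higher and Bnip3 as lower in males, while 45.5% of all items passed (18.4% higher and 27.1% lower in males). The same pair were the genes of the 9 whose sexes did not overlap, a feature of 43% of all items (18% higher and 25% lower in males). The share among the 9 was below that of the table on both counts. The median sex difference was -0.042 over the 9 genes and -0.10 over all items. With the 8 channels treated as independent samples 5 of the 9 passed, and with the intraspot correlation estimated from the model that holds the sex by genotype term 1 of 9, Vegfa, passed.

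**Figure D3:**
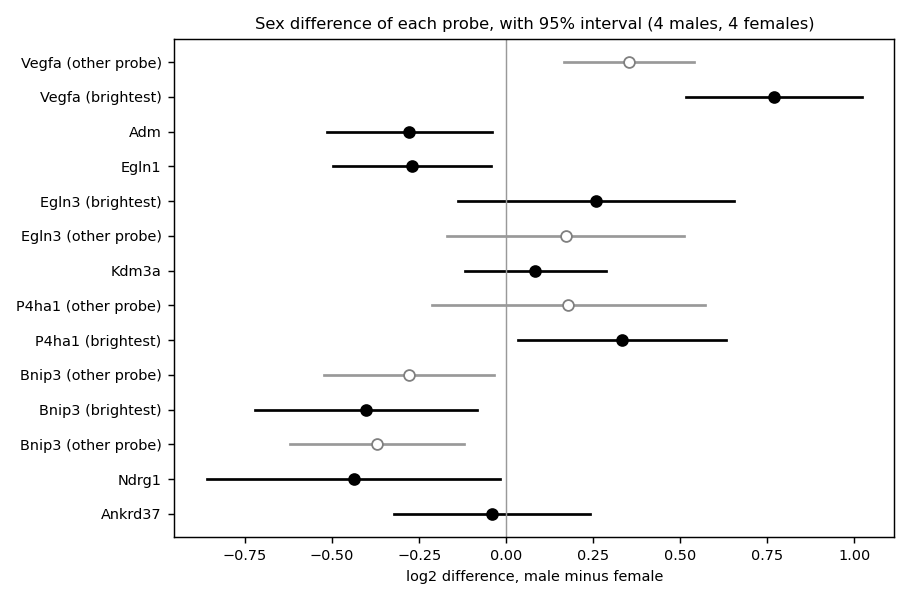
Log2 difference of males minus females (horizontal axis, 4 males and 4 females) for every measured probe of the 9 genes, with 95% intervals; filled black symbols mark the probe that represents the gene and open grey symbols its other probes. Both Vegfa probes lie above 0 and all 3 Bnip3 probes below it.

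Around these genes, 98 further genes in 6 lists were examined, of which 90 were measured. No gene of the 6 lists passed the genotype test. Their counts stand beside those of all items, of which 10616 had a positive and 11506 a negative genotype ratio, and of which 45.5% passed the sex test, 18.4% as higher and 27.1% as lower in males. Of the 15 HIF subunits and oxygen sensing genes, all measured, 9 had positive and 6 negative ratios with a median of 0.044. Siah1a, a ubiquitin ligase that removes prolyl hydroxylases, had a positive ratio on every array with a mean of 0.20 (SE 0.076, limma, adjusted p = 0.98). Its probe may share signal with the close paralog Siah1b.

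The oxygen-sensing list differed by sex in 6 of 15 genes (40%, against 45.5% of all items), 1 higher and 5 lower in males, with a median of -0.21, against -0.10 over all items. Hif3a, the third alpha subunit, was at 7.05 and 7.14 in wild-type females and 7.14 and 7.07 in mutant females. In males it was at 9.25 and 9.52 in wild type and 9.86 and 9.21 in mutants. The sexes did not overlap, and males were higher by 2.36 (SE 0.13, limma, adjusted p = 9.3e-05). Its probe was well above background in 3 of 4 female and all 4 male channels, so it was not tested where all 8 channels had to be. The size of the Hif3a difference depended on the processing: it was 1.16 with the mean of its measured probes and 3.63 with Feature Extraction's processed intensities, both with males higher. Epas1, the alpha subunit that drives Epo in the kidney, was lower in males, at -0.51 (SE 0.10, limma, adjusted p = 0.0077), from 14.16 to 14.37 in females and from 13.67 to 13.94 in males. Vhl, the recognition subunit of the ligase, was at -0.29, Siah1a at -0.43, and Rbx1 and Eloc, partners of Vhl in the ligase, at -0.28 and -0.25 in the same comparison. The further partners on the list, Elob at -0.21 and Cul2 at -0.073, did not pass (limma, adjusted p = 0.063 and 0.51). Hif1a itself, at -0.27 (SE 0.14, limma, adjusted p = 0.16), did not pass.

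Of the 8 receptor genes for erythropoietin, Vegf and adrenomedullin 7 were measured, and Calcrl was not well above background in any channel. Their median genotype ratio was 0.026. By sex 4 of 7 were lower in males and none was higher (57.1%, against 45.5% of all items). Kdr, the main signalling receptor of Vegf, was at 13.42 to 13.72 in females and 12.99 to 13.27 in males, a difference of -0.43 (SE 0.097, limma, adjusted p = 0.013). Its co-receptor Nrp2 differed by -0.43, and Ramp3 and Ramp2, which turn the calcitonin receptor-like protein into an adrenomedullin receptor, by -0.46 and -0.36. Flt1, at 0.047 (SE 0.11), and Epor, the erythropoietin receptor, at 0.29 (SE 0.43), did not pass. Epor passed only without replicate 3, at 0.88, and was at -0.31 without replicate 4. Kdr is also among the endothelial markers, of which 3 of 5 were lower in males, against 27.1% of all items.

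Of the 19 further HIF targets of glucose and lactate metabolism 18 were measured, all but the dim Slc2a3. Their genotype ratios were positive in 14 and negative in 4, with a median of 0.090 and a range of -0.11 to 0.25. Of the 18, 3 had an unadjusted p under 0.05, or 16.7% against 4.46% of all items. Pgk1 and Eno1, both enzymes of glycolysis, were higher in the mutant on every array, by 0.24 (SE 0.083) and 0.13 (SE 0.069), with adjusted p = 0.98 for both by limma. By sex 2 were higher and 4 lower in males, 33.3% against 45.5% of all items. Ldha, lactate dehydrogenase A, was higher by 0.34 and Tpi1, triosephosphate isomerase, by 0.27. With Feature Extraction's processed intensities, which were not scaled between arrays, both calls were lost. The differences were 0.082 for Ldha (limma, adjusted p = 0.70) and -0.024 for Tpi1 (limma, adjusted p = 0.92). With the value table the differences were 0.31 for Ldha and 0.23 for Tpi1 (limma, adjusted p = 0.028 and 0.061). Slc2a1, the glucose transporter Glut1, was lower in males, at -0.64, as were the glycolytic enzymes Aldoa and Pgam1, at -0.36 and -0.34. Hk2, hexokinase 2, passed the test of the genotype ratio between the sexes, at 1.54 (SE 0.18, limma, adjusted p = 0.049), against 0.14% of all items. The call was lost with processed intensities (3.43, limma, adjusted p = 0.90), with the value table (3.44), with the offset of 16 (2.02), without the dye term and with no replicate block. Its level was 7.88 and 8.03 in wild-type females, 7.54 and 7.08 in mutant females, 6.56 and 7.67 in wild-type males, and 7.84 and 8.18 in mutant males. The probe was well above background in 6 of 8 channels, and the 6.56 of wild-type replicate 3 lay beside a lowest measured level of 6.51 in that channel. The Hk2 ratio was negative in both female and positive in both male pairs, as were the median ratios of the fat markers, whose part in it was not tested.

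Of the 36 other HIF targets 33 were measured, with Mxi1, Bhlhe41 and Lox dim. Their genotype ratios were positive in 11 and negative in 22, with a median of -0.11. Cxcr4, a chemokine receptor, was lower in the mutant on every array, at -0.26 (SE 0.071, limma, adjusted p = 0.98). Its probe was well above background in 4 female but only 2 male channels, and the ratio was -0.63 with processed intensities and -0.61 with the value table. Higd1a, a mitochondrial protein, was higher on every array, at 0.080 (SE 0.073). By sex 3 were higher and 8 lower in males, 33.3% against 45.5% of all items. Car9, a carbonic anhydrase, was at 9.32 to 9.39 in females and 10.15 to 10.45 in males, higher by 0.93 (SE 0.084, limma, adjusted p = 0.00049). Angptl4, an inhibitor of lipoprotein lipase, was higher by 0.86 and Hmox1, heme oxygenase 1, by 0.57. The Angptl4 difference was 0.38 in wild types alone and 1.34 in mutants alone, and that of Hmox1 was 0.17 with the mean of its measured probes. Trf, transferrin, was lower in males, at -1.30, as were Stc2, stanniocalcin 2, at -1.19 and Mt1, metallothionein 1, at -0.76.

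All 10 markers of the interstitial cells that can make erythropoietin were measured, while Epo itself was not above background. Their median genotype ratio was -0.10. Nt5e, the ecto-5′-nucleotidase, which proximal tubule cells carry too, had a ratio of 0.20 (SE 0.070, limma, adjusted p = 0.98), positive on every array. By sex 3 of 10 passed, 30% against 45.5% of all items. In males Nt5e was higher by 0.96, while Pdgfrb and Ngfr, receptors found on these cells, were lower, at -0.66 and -0.76.

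Of the 10 blood and erythroid genes 7 were measured. All 7 had negative genotype ratios, with a median of -0.33, none of which passed, against 11506 negative ratios among all 22122 items. Their median ratios on arrays 1 to 4 were -0.10, -1.07, -0.13 and 0.12, so that array 2 lay far below the others and array 4 above 0. Without replicate 2 the median was -0.086, and 5 of the 7 were negative. Only Slc4a1, the anion exchanger of red cells and of collecting duct cells, had 1 sign on all arrays, at -0.084 (SE 0.069, limma, adjusted p = 0.98). By sex 5 of 7 were lower in males and none was higher, with a median of -0.58 (71.4%, against 45.5% of all items). Hbb-bs, Hba-a1 and Hbb-b2 were lower in males, at -1.02, -0.93 and -0.81, and these globin genes have near-identical copies whose signal a probe may share. Of the 27 list genes named here as differing by sex, Hif3a, Car9, Stc2, Nt5e and Pdgfrb passed under every alternative in which they were tested. The other 22 missed the threshold under 1 or more. Of 16 alternatives, Eloc passed in 4, Tpi1 in 5, Rbx1 in 6, Siah1a and Vhl in 9, and Ldha, Aldoa and Ramp2 in 10. The rest of the 22 passed in 11 to 15. Processed intensities were not scaled between arrays. With them the differences of Hif3a, Vhl, Ramp3, Ramp2, Nrp2, Rbx1, Eloc, Ldha, Tpi1 and Pgam1 moved by more than 1.5 times. In mutants alone those of Trf, Hbb-bs, Hba-a1, Hbb-b2, Angptl4 and Eloc did so, and in wild types alone those of Angptl4 and Eloc. With the mean of probes those of Hif3a, Nrp2, Tpi1, Hmox1 and Rbx1 did so, and with the value table that of Siah1a.

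**Figure D4:**
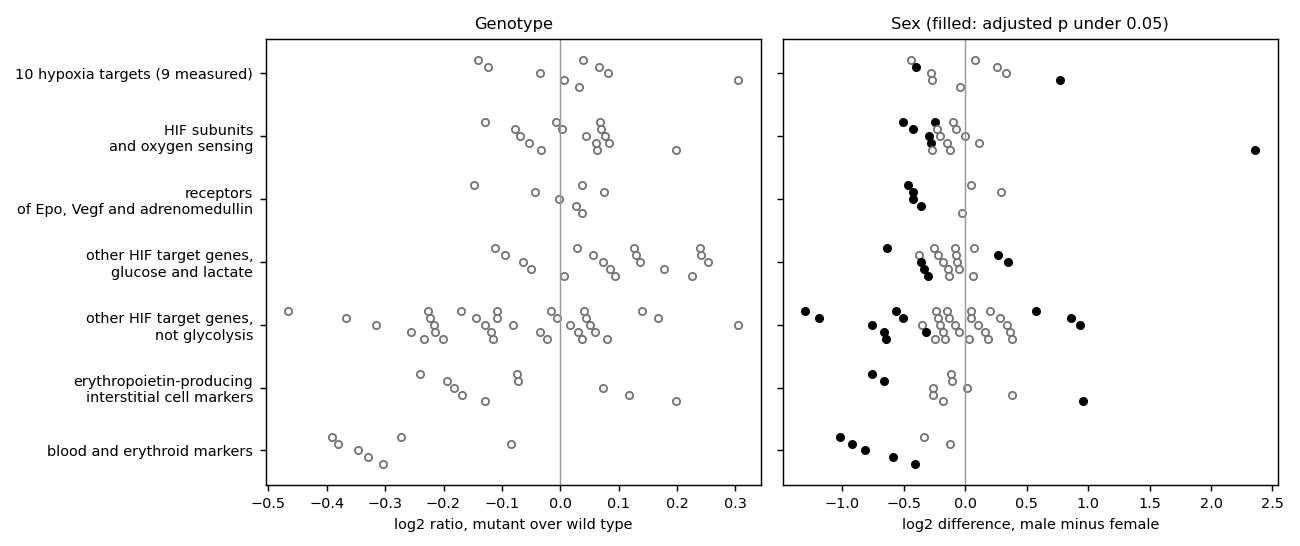
Log2 ratio of mutant over wild type (left) and log2 difference of males minus females (right) of every measured gene (points) in the 10 hypoxia targets and the 6 further lists; filled points on the right mark an adjusted p under the threshold, and no gene passed on the left. The median of the 7 blood genes lies at -0.33 for genotype and -0.58 for sex; the highest point on the right is Hif3a, whose value depended on the processing.

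Across the 8 samples the 9 genes had no common direction. Of their 36 pairs 14 had a positive and 22 a negative Pearson correlation of levels, with a median of -0.12. The range was from -0.90 for Bnip3 with P4ha1 to 0.77 for Egln1 with Adm. These points share arrays, dyes and sex, and are given as a description. The items most like Vegfa were 3 probes without a gene name, A_30_P01025818, A_30_P01029353 and A_30_P01026670, at r of 0.996, 0.994 and 0.993 over 8 samples. In all, 2124 items had r above 0.9 with Vegfa, 231 with Bnip3 and 6 with Egln3. The nearest to Bnip3 were 3 unnamed probes, A_30_P01021759, A_30_P01017459 and A_30_P01024482, at 0.984, 0.979 and 0.977. The nearest to Egln3 were Brsk1 at 0.965, the unnamed probe A_55_P2011672 at 0.949 and Man2a2 at 0.936.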

How the data were processed

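The deposited spot and background intensities are medians of pixels that the authors obtained with Feature Extraction (Agilent, version 10.7.3.1). The file headers also name each spot's deposited 0 or 1 marks, another kind of value, for outliers and for signal well above background. The deposited value table holds log2 values that the authors scaled and centred on each probe's median over the 8 samples, as its row medians of 0 and its match to the scanner ratios show (r of 0.968 to 0.995), and it served as an alternative. Their further steps are not given in the sources used here.

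With limma 3.58.1 in R 4.3.3 (with statmod 1.5.0 and version 1.17.8 of data.table), background was removed by normexp (offset 50), ratios were normalized by loess with control and outlier spots at weight 0, spots were averaged per probe, and channels were scaled by Aquantile for levels. Probes were named through RefSeq accessions (27509 probes of 20887 genes). Probe sequences were not used here, so the place of a probe in its transcript is not given. Median Cy3 intensity was 97 to 105 over a background of 51 to 57, and median Cy5 intensity 220 to 245.5 over 141 to 144. Between 26919 and 30529 probes in each sample were well above background, and the number of arrays limits the precision.

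Genotype was tested on the 4 log2 ratios with a dye term (2 residual degrees of freedom), and its difference between the sexes with a sex term added (1 residual). Sex was tested on the 8 channels with terms for genotype within sex and dye and an intraspot correlation of 0.157. That correlation was estimated with the sex by genotype term left out, although the fit holds it. With the term kept it was 0.779, and 3836 items passed the sex test against 10065. The value used is thus the less strict. The shared array pairs the samples. Deviations from the genotype means correlated at 0.680 to 0.782 between the 2 mice of an array. These deviations still hold the sex difference, which both mice of an array share, so the values cannot show an effect of the array. All p-values are 2-sided limma values, adjusted by Benjamini-Hochberg over 22122 items with a threshold of 0.05, and the scripts were tested on simulated data. An exact permutation of the 4 pairs cannot go below p = 0.125.

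The genes and lists were chosen with earlier results of these data known. Every hypoxia target is named. From each other list up to 3 genes in each direction are named, those with the largest ratio of 1 sign on all arrays for genotype and the largest passing difference for sex. For Vegfa, Egln3 and Bnip3 the 3 items of highest correlation are named. Other genes (Hif1a, Rbx1, Eloc, Elob, Cul2, Ramp2, Flt1, Epor and Hk2, and the markers of other cell types) were named after their values were seen. Alternatives were Feature Extraction's processed intensities, an offset of 16, median normalization, the value table, other filters on dim probes and other probe rules. Further ones were no dye term, no replicate block, another correlation, each genotype alone and leaving out each replicate. The processed intensities were used without scaling between arrays, and the sexes lay on different arrays.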

Additional observations from a re-analysis of the deposited data

Results flagged for a closer look

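Among 182 groups of 4 samples tested, 11 held a sample that stood apart, its gap to the nearest other sample being above Dixon's 95% critical share of the group's range. For independent samples from a normal distribution, chance gives about 1 in 20, or 9.1. The genotype groups mix the sexes and the groups share samples, so this number is only a rough guide. Among the hypoxia targets, Egln1 stood apart at 7.75 in wild-type replicate 1 among the wild types and at 7.21 in mutant replicate 3 among the males. Egln3 did so at 9.14 in wild-type replicate 4 among the males, whose others lay at 8.64 to 8.67. Bnip3 did so at 15.41 in wild-type replicate 2 among the females, whose others lay at 15.08 to 15.12.

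In the other genes, Pus1 was at 10.003 in wild-type replicate 3 against 10.34 to 10.39 in the other wild types, Hif1a at 9.33 in the same sample against 9.94 to 10.07, and Aldoa at 17.05 there among the males. Ngfr was at 7.91 in mutant replicate 1 among the females and Slc4a1 at 11.85 in wild-type replicate 4 among the males. The globins Hba-a1 and Hbb-b2 were at 17.86 and 15.07 in mutant replicate 1 among the mutants.

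The ratio of mutant over wild type had opposite signs in the female and male pairs for Ankrd37, with a difference of 0.59 (limma, adjusted p = 1.00), for Trf, with 1.10 (limma, adjusted p = 0.28), for Epor, with 1.33 (limma, adjusted p = 1.00), and for Hk2, with 1.54 (limma, adjusted p = 0.049). The search covered the hypoxia targets and the list genes named here, apart from Cul2 and Elob, and list genes outside it had opposite signs too. In the 6 lists, the share at an unadjusted limma p under 0.05 for this difference ran from 6.67% to 28.6%. The lowest was that of the oxygen sensing genes and the highest that of the blood genes, against 3.82% of all items. The Trf ratios were -0.38 and -1.17 in the female and 0.44 and 0.20 in the male pairs, and those of Hk2 -0.34 and -0.95 in the female and 1.28 and 0.51 in the male pairs. The fat markers had median ratios of -1.58, -1.85, 1.96 and 0.55 on the same arrays, and their part in these genes was not tested.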

How the results depend on the processing

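No hypoxia target passed the genotype test, or its comparison between the sexes, under any alternative run. With 2 residual degrees of freedom or fewer, small changes could go undetected. In the comparison between the sexes larger ones could too, since its median SE was 0.18 against 0.081 for genotype. In simulated data the genotype test called 12.9% of true log2 changes of 0.5, 75.4% of 1 and 94.5% of 2. The comparison between the sexes called 0% of each size, but 31 items passed it in the real data, so this rate does not carry over. The 95% intervals of the genotype ratio reached 1.19-fold for Kdm3a and 1.48-fold for Ndrg1. Items past the genotype threshold numbered 6, against 0 with processed intensities, 10 with median normalization, 0 with the value table, 3 with no replicate block and 1 to 3 without each replicate. Items past the comparison between the sexes numbered 31, against 0 with processed intensities, 0 with the offset of 16, 223 with median normalization, 0 with the value table, 66 without a filter, 54 with every probe kept, 0 without the dye term and 0 with no replicate block. Without a replicate that comparison has no residual degrees of freedom and gave values only. Items past the sex threshold numbered 10065, against 5760 with processed intensities, 3836 with the other correlation (0.779), 6587 in mutants alone and 2543 to 8552 without each replicate. Their share higher in males, 40.5%, became 53.6% with that correlation and 58.6% and 61.9% without replicates 1 and 2. Hypoxia targets past it numbered 2, against 1 with processed intensities, 4 with all channels above background, 1 without a filter, 5 with no replicate block, 1 with the other correlation, 1 in wild types alone and 0 to 3 without each replicate. Vegfa missed it only without replicate 2. Bnip3 missed it in 10 of 16 alternatives. Signs turned for genotype ratios near 0: Egln1 with median normalization (-0.012) and P4ha1 with the mean of probes (-0.022). Leaving out each replicate in turn moved the ratio of Ndrg1 from 0.18 to 0.43, Kdm3a from 0.020 to 0.11, Egln1 from -0.12 to 0.13, Egln3 from -0.31 to 0.063, Bnip3 from -0.20 to 0.13, Ankrd37 from -0.18 to 0.26 and P4ha1 from -0.14 to 0.21. The Adm difference between the sexes' ratios turned with processed intensities (-0.13), the offset of 16 (-0.0086) and the value table (-0.15). Sex differences turned for Kdm3a and Tpi1 with processed intensities (-0.028 and -0.024) and for Ankrd37 in mutants alone (0.25) and from -0.14 to 0.059 without each replicate, for Flt1 with processed intensities (-0.18) and for Epor in wild types alone (-0.38) and from -0.31 to 0.88 without each replicate. Processed intensities also lacked the scaling between arrays, and the sexes lay on different arrays. The cause of these turns was not tested.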
